A study of Mus musculus with 3 samples.

Results

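The cells described here were 2 clusters of nuclei from the epididymal fat of mice on a high fat diet, cluster 8 of the Mid_Ob library and cluster 9 of the Ob library, out of 46 clusters in 3 libraries. Both were chosen by their measured levels of Sema3e, Pi16, Col14a1 and Pdgfra, so these levels and every gene that sets a cluster apart from its own library are given as a description. The question put to the data was whether both clusters hold the same kind of cell. Each library pooled the epididymal fat of 8 male C57BL/6J mice, bought at 5 weeks of age and of no stated genotype or transgene. Ctrl mice ate ordinary chow, called a full diet in the labels, and Mid_Ob and Ob mice ate a 60% fat diet until their body weight passed that of controls by 10% (Mid_Ob) or 20% (Ob). The labels and methods do not state the age at sampling, and diet, age and weight gain moved together between the stages and cannot be told apart. Each stage had 1 library, so no value has a replicate, no difference was tested, and every interval below covers counting error only.

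White fat is held together by a stroma of fibroblast-like cells, many of which can become adipocytes. In mouse fat these cells are often split into an interstitial pool that carries Dpp4 and Pi16 together with fibrous matrix genes such as Fbn1 and Tnxb, and a more committed pool that carries Icam1 and Pparg. Pdgfra, a receptor for platelet-derived growth factor, marks both pools, while pericytes and smooth muscle cells, the mural cells that wrap vessels, carry Rgs5, Notch3, Abcc9 and Myh11 instead. Sema3e is a secreted guidance cue of the class 3 semaphorins whose main receptor is plexin D1, and Col14a1 is a fibril-associated collagen.

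Mid_Ob cluster 8 held 1539412 unique molecular identifiers (UMIs), 2.67% of its library, and Ob cluster 9 held 1858236 UMIs, 1.67% of its library. In nuclei of median depth these sums equal 231 nuclei of 6676 UMIs in Mid_Ob and 471 nuclei of 3946 UMIs in Ob. The 2 clusters are therefore of nearly equal depth as sums, but the nuclei of Ob were shallower, and fewer nuclei of a type and less RNA per nucleus cannot be told apart in a summed cluster. Levels are given as CPM, the count of a gene for every 1000000 UMIs of its cluster. A gene was called higher or lower when the CPM of both clusters differed by over 1.5-fold and the pair held at least 50 counts.

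Sema3e was at its highest level in these 2 clusters within each high fat library. It was counted 638 times in Mid_Ob cluster 8 (414 CPM, 95% interval 383 to 448) and 589 times in Ob cluster 9 (317 CPM, 292 to 344). The level in Ob cluster 9 was 1.31-fold lower (1.17 to 1.46), which is within the 1.5-fold limit. No other Mid_Ob cluster came near, the next being cluster 11 at 35.4 CPM. In Ob, by contrast, cluster 8 stood at 274 CPM (259 to 290) and cluster 19 at 129 CPM, so Sema3e did not single out cluster 9 in that library. Mid_Ob cluster 8 held 59.7% of all Sema3e counts of its library, whereas Ob cluster 9 held 14.9% and Ob cluster 8 held 32.9%. In Ctrl, from mice on ordinary chow, 58.1% of the Sema3e counts lay in cluster 4, at 569 CPM, a cluster in which all 13 blood endothelial markers were also counted under the marker rule given below.

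Pi16, a secreted peptidase inhibitor of the interstitial pool, also had its highest level of each high fat library in these clusters. It was counted 192 times (125 CPM, 108 to 144) in Mid_Ob cluster 8 and 104 times (56.0 CPM, 45.7 to 67.8) in Ob cluster 9, 2.23-fold lower (1.75 to 2.85). Ob cluster 8 was at 51.2 CPM (45.0 to 58.1), within the interval of cluster 9. Col14a1 was 1.59-fold lower (1.46 to 1.73) in Ob cluster 9, with 824 CPM in Mid_Ob cluster 8 and 518 CPM in Ob cluster 9. Pdgfra differed least of the defining markers, with 257 CPM in Mid_Ob cluster 8 and 222 CPM in Ob cluster 9, 1.16-fold lower (1.01 to 1.33). For Col14a1 and Pdgfra, Ob cluster 8 lay above cluster 9, at 634 and 278 CPM.

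**Figure D1:**
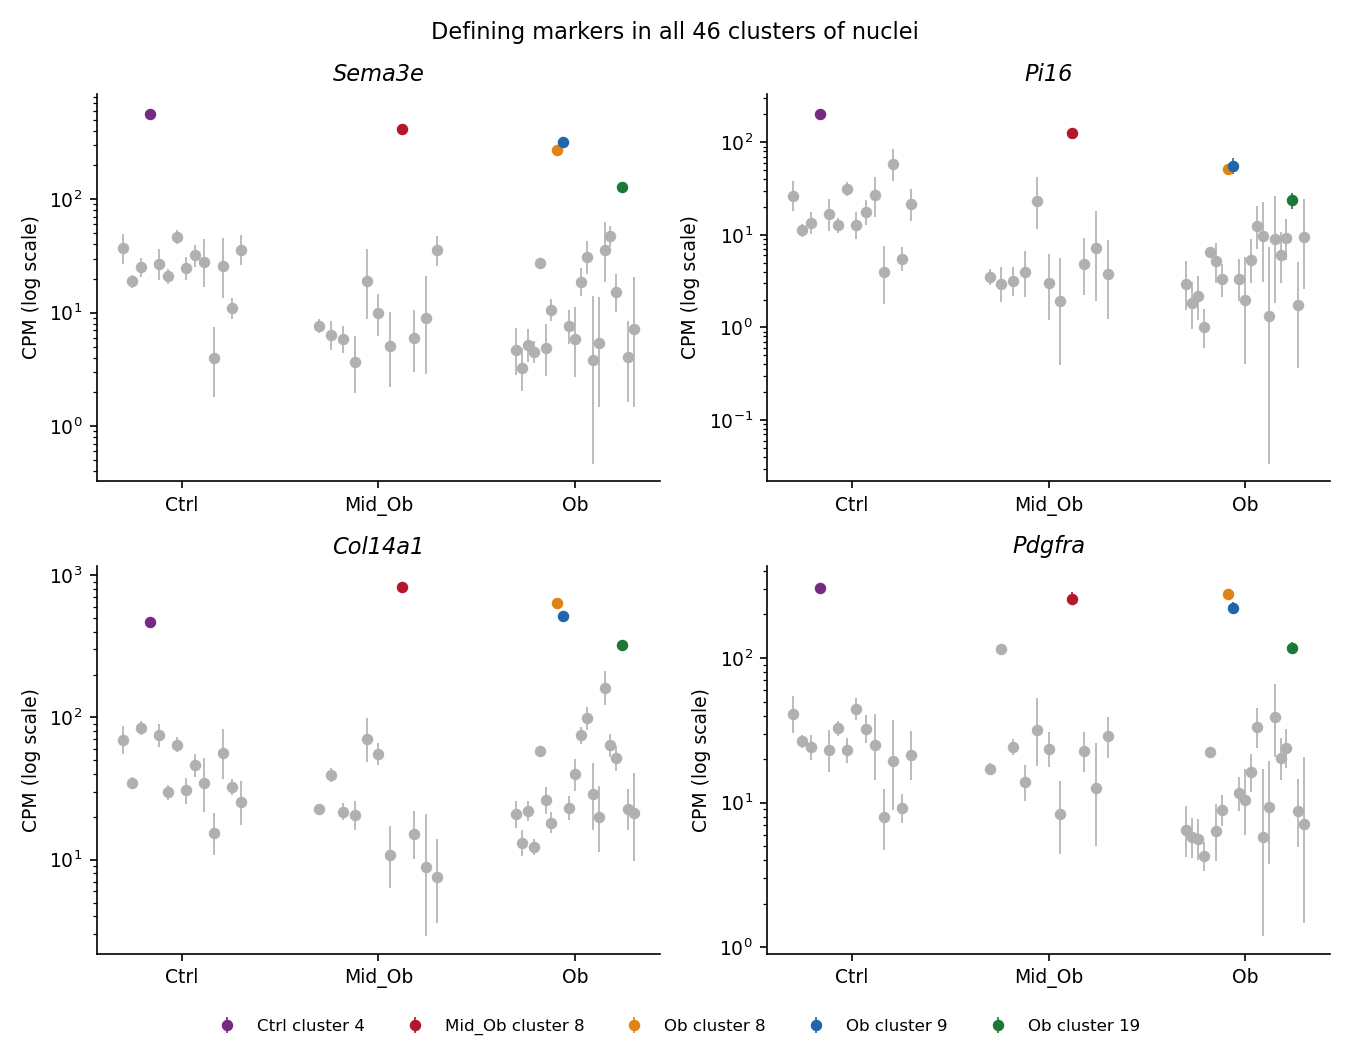
Level of Sema3e, Pi16, Col14a1 and Pdgfra in CPM (log scale) in each of the 46 clusters of nuclei, grouped by library, with bars for the 95% Poisson interval of the count. Mid_Ob cluster 8 stands alone above the other Mid_Ob clusters in all 4 panels, while Ob cluster 9 lies beside Ob cluster 8 and above Ob cluster 19, and Ctrl cluster 4 is the highest of Ctrl.

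Markers of other cell types were compared with the same rule in both clusters, a marker being counted when its CPM passed 2-fold the median of the other clusters of its library with at least 10 counts. All 16 fibroblast markers were counted in both clusters. The same rule counted 15 of them in Ob cluster 8, 14 in Ob clusters 13 and 16 and 12 in Mid_Ob cluster 5. A high count of fibroblast markers was therefore not particular to the pair. Of 18 markers of the Dpp4/Pi16 progenitor, 16 were counted in Mid_Ob cluster 8 and 17 in Ob cluster 9. None of 12 adipocyte, 13 macrophage, 12 lymphocyte, 8 mast cell or 10 dividing cell markers was counted in either cluster. With the summed other clusters in place of their median, 3 of 10 dividing cell markers were counted in Mid_Ob cluster 8 and none of the rest. The clusters were chosen by Pdgfra of the fibroblast list and by Pi16 and Col14a1 of the progenitor list, so those lists hold them by choice. With that limit, both clusters met the label of stromal, fibroblast-like cells, as a description. Markers of the other stromal pools were counted in part, with 9 and 10 of 15 committed preadipocyte markers in Mid_Ob cluster 8 and Ob cluster 9, 6 of 9 F3 regulatory stroma markers in each and 2 of 12 mesothelial markers in each. Of vessel markers, 5 of 13 pericyte and smooth muscle markers were counted in Mid_Ob cluster 8 against 8 in Ob cluster 9, and 3 of 13 blood endothelial markers against 10.

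The sum of the 18 progenitor markers ranked 1 of 11 clusters in Mid_Ob cluster 8, at 12728 CPM against 3981 CPM in the next cluster. In Ob cluster 9 the same sum was 7931 CPM and ranked 2 of 21, behind 8630 CPM in Ob cluster 8. The 16 fibroblast markers summed to 6556 CPM in Mid_Ob cluster 8, the highest of its library. In Ob cluster 9 they summed to 8790 CPM, which ranked 3, behind 11265.5 CPM in cluster 16 and 9630.6 CPM in cluster 8. In Ob cluster 16, 12 of 13 blood endothelial markers were counted as well.

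Likeness of whole profiles was measured as the Pearson correlation, across genes, of the log2 ratio of a cluster over the other clusters of its own library. Over 13451 genes, Mid_Ob cluster 8 correlated with Ob cluster 9 at 0.709, rank 2 of 21 Ob clusters. Ob cluster 8 had rank 1 at 0.732 and Ob cluster 19 rank 3 at 0.671, and the next, Ob cluster 12, was at 0.279. Seen from the other side, Mid_Ob cluster 8 was the closest of 11 Mid_Ob clusters to Ob cluster 9, ahead of cluster 6 at 0.418 and cluster 9 at 0.365. Both clusters had the same closest partner in Ctrl, cluster 4, at 0.687 for Mid_Ob cluster 8 and 0.653 for Ob cluster 9. These genes share libraries and are not independent and no p is given. The 3 Ob partners lay close together in r, and their order has no error estimate.

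**Figure D2:**
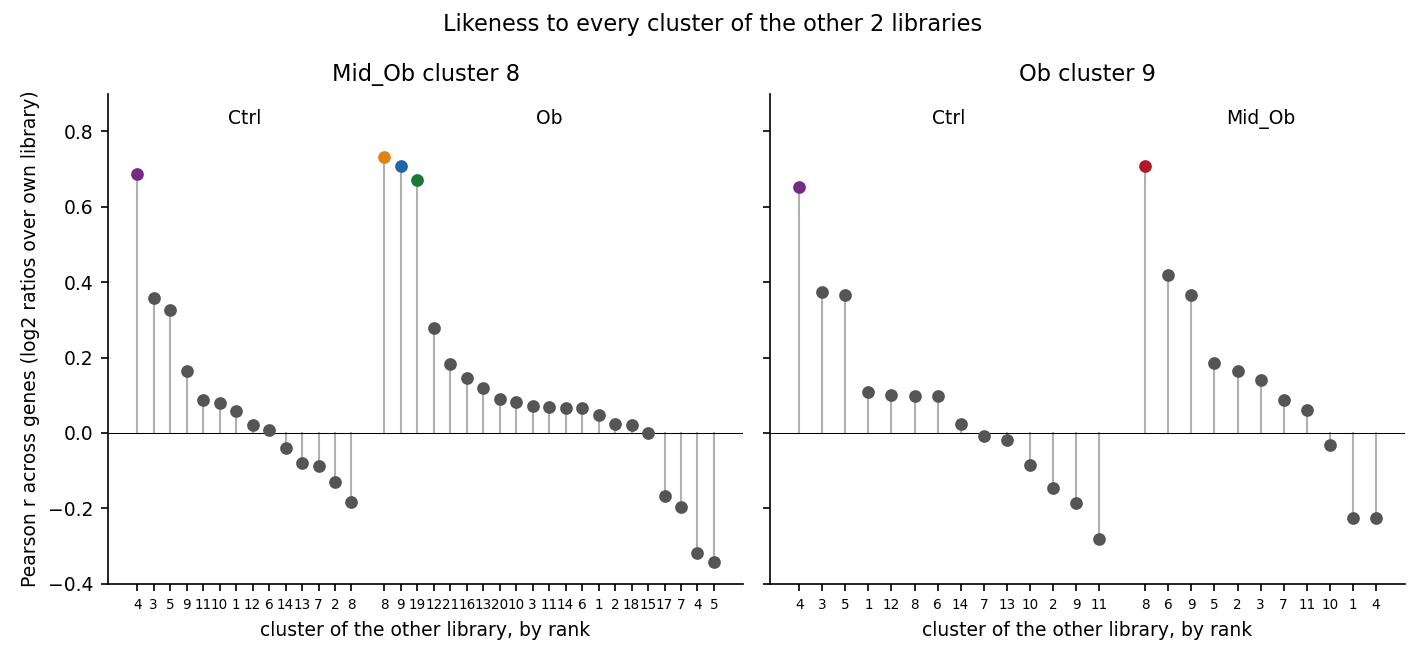
Pearson r across genes between the log2 ratios over the own library of Mid_Ob cluster 8 (left) or Ob cluster 9 (right) and those of every cluster of the other libraries, ordered by rank and numbered on the horizontal axis. Mid_Ob cluster 8 has 3 close partners in Ob, clusters 8, 9 and 19, while Ob cluster 9 has 1 close partner in Mid_Ob and both share cluster 4 of Ctrl.

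Leading genes of both clusters overlapped in good part. Of the 100 leading genes of Mid_Ob cluster 8, those with the largest ratio over the other clusters and at least 50 counts, 62 were also among the 100 leading genes of Ob cluster 9. With the 50 leading genes of each, 22 (44%) were shared, and with 200, 130 (65%). Ob cluster 19 shared 68 with Mid_Ob cluster 8 and Ob cluster 8 shared 60, while no other Ob cluster shared more than 3. For Ob cluster 9 the next Mid_Ob cluster was cluster 9, with 7 shared genes.

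The shared leaders had varied roles. C7, a terminal complement component, stood at 979.6 CPM in Mid_Ob cluster 8 and 801 CPM in Ob cluster 9, with log2 ratios of 4.32 and 3.77 over the rest of each library. Lama2, the laminin chain of interstitial basement membranes, was at 1637 and 1881 CPM. Vcan, the large proteoglycan versican, was at 524 and 697 CPM. Opcml, a cell adhesion molecule of the IgLON family, was at 767 and 555 CPM, and Nova1, an RNA-binding splicing regulator, at 674 and 672 CPM. Abca8a, a lipid transporter, was at 529 and 592.5 CPM. Gfpt2, an enzyme of hexosamine synthesis, was at 600.2 and 446 CPM. All of these stayed within 1.5-fold between the clusters, while other shared leaders did not. Sult1e1, which adds sulphate to oestrogens, was at 142 CPM in Mid_Ob cluster 8 and 289.5 CPM in Ob cluster 9, 2.04-fold higher (1.74 to 2.39), where the other clusters of Ob were also 2.65-fold above those of Mid_Ob, or 1.22-fold without Ob clusters 8 and 19. Tnfaip6, a hyaluronan-binding protein induced in inflammation, was at 77.3 and 165 CPM, 2.14-fold higher (1.72 to 2.66), and 5.18-fold higher in the other clusters. The interferon-inducible Ifi205 was at 145.5 and 306 CPM, 2.10-fold higher (1.80 to 2.46), and 3.02-fold higher in the other clusters. Fndc1, a fibronectin domain protein, was lower, at 680.1 and 298 CPM.

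**Figure D3:**
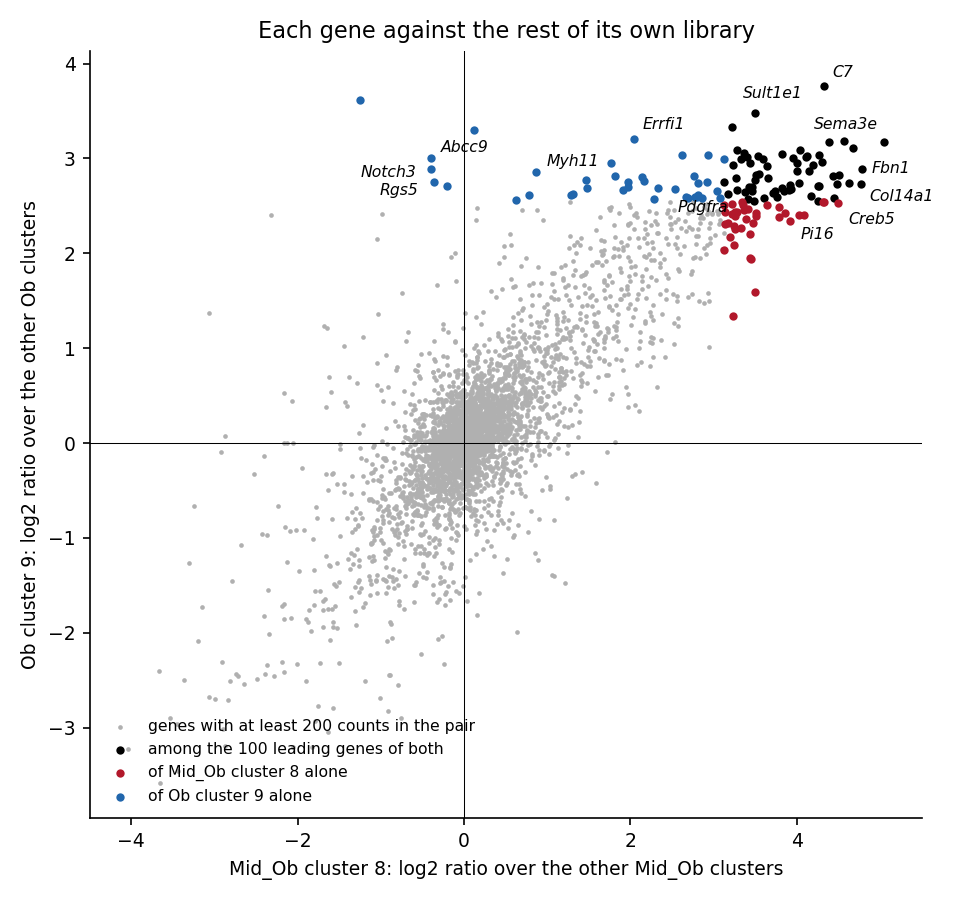
Log2 ratio of each gene over the other clusters of its own library in Mid_Ob cluster 8 (horizontal) and Ob cluster 9 (vertical), for 3673 genes counted 200 times or more in the pair (grey) and for the 100 leading genes of each cluster. The 62 shared leaders lie at the upper right. The mural genes Abcc9, Notch3 and Rgs5 lie at the upper left, above the rest of the library in Ob cluster 9 but not in Mid_Ob cluster 8.

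The 38 leaders of Ob cluster 9 alone held the mural genes Notch3, Rgs5, Abcc9 and Myh11, which were not among the leaders of Mid_Ob cluster 8, and Errfi1, an inhibitor of the EGF receptor induced by growth signals. Errfi1 was at 444 CPM in Mid_Ob cluster 8 and 1276 CPM in Ob cluster 9, 2.87-fold higher (2.64 to 3.13), and highest of all clusters in both libraries. Lin7a and Stac also led Ob cluster 9 and were singled out after their values were seen. Lin7a was counted 17 times in Mid_Ob cluster 8 and 167 times in Ob cluster 9, and Stac 6 and 125 times. The 38 leaders of Mid_Ob cluster 8 alone held Creb5, Pi16, Cd55 and Fstl1. The cut is by rank, and some genes lay close to it. In Ob cluster 9 Fstl1 and Creb5 had log2 ratios of 2.54 and 2.53, beside 2.55 for the shared leader Galnt16. Pdgfra led Ob cluster 9 alone, with ratios of 2.81 in Mid_Ob cluster 8 and 2.75 in Ob cluster 9.

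A direct comparison of Ob cluster 9 with Mid_Ob cluster 8 covered 8719 genes. Of these, 1123 (12.9%) were higher and 1004 (11.5%) lower in Ob cluster 9, and 6592 (75.6%) lay within 1.5-fold, with a median log2 ratio of -0.02. The interval of the ratio left out 1 for 997 of the higher and 872 of the lower genes. A large share of these calls was also seen in the rest of the libraries: 551 of the higher genes (49.1%) and 433 of the lower genes (43.1%) were past 1.5-fold the same way when all other clusters of Ob were compared with all other clusters of Mid_Ob. The other clusters of Ob include the stromal clusters 8 and 19, both close to Mid_Ob cluster 8 in likeness, and without them these counts were 555 (49.4%) and 459 (45.7%). For a called gene given with its levels below, the ratio in the other clusters, with clusters 8 and 19 among them, is printed wherever it was past 1.5-fold the same way. The counts of list members below are read against the 12.9% and 11.5% of all genes. Members of low level can reach 50 counts through the cluster where they are higher, so list counts and medians carry this limit. For some lists the sum over all members is given in place of a count. With 1 library a stage, the stage, the pooled mice and the library preparation cannot be told apart.

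Markers of the Dpp4/Pi16 progenitor were lower in Ob cluster 9. Of 17 with at least 50 counts, 12 were lower and 1 higher, against 11.5% and 12.9% of all genes, with a median log2 ratio of -0.86. Pi16 and Col14a1, by which the clusters were chosen, are among the 12, so this count is a description. In the other clusters the median of these genes was 0.72, and relative to those clusters it was -1.32. Without Ob clusters 8 and 19, which carry the same genes, these medians were 0.26 and -0.72. Fbn1, the microfibril protein fibrillin-1, was at 3855 CPM in Mid_Ob cluster 8 and 2493 CPM in Ob cluster 9, 1.55-fold lower (1.49 to 1.61). Creb5, a transcription factor, was at 2256 and 1223 CPM, 1.84-fold lower (1.75 to 1.95). Cd55, which protects cells from complement, was at 618 and 298 CPM, 2.08-fold lower (1.87 to 2.31). Tnxb, the matrix glycoprotein tenascin-X, was at 1015 and 611 CPM, 1.66-fold lower. Efhd1, a mitochondrial calcium-binding protein, was at 110.4 and 54.4 CPM, and Pcolce2, an enhancer of procollagen processing, at 141 and 61.9 CPM. In the other clusters Fbn1, Creb5, Cd55 and Efhd1 were higher in Ob, between 1.65-fold and 2.45-fold. Without Ob clusters 8 and 19 none of these 4 was above 1.39-fold higher there.

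Dpp4, a surface peptidase, was at 411 CPM in Mid_Ob cluster 8 and 180.3 CPM in Ob cluster 9, 2.28-fold lower (1.995 to 2.61), and it was lower still in the other clusters, where the ratio was 0.326. Dact2 (105 and 57.6 CPM) and Bmp7 (23.4 and 9.69 CPM) were also lower in those clusters, at ratios of 0.531 and 0.0985. Igfbp6, a binding protein of insulin-like growth factors, was the 1 higher member, at 29.9 and 47.4 CPM, and was 1.88-fold higher in the other clusters. Mfap5 and Opcml stayed within the limit, with Mfap5 at 539.8 and 553 CPM. Beside the neighbouring stroma of the same library the list was level: none of its 18 members with 50 counts differed by over 1.5-fold between Ob cluster 9 and Ob cluster 8.

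Several mural genes were higher in Ob cluster 9. The 13 pericyte and smooth muscle markers summed to 198 CPM in Mid_Ob cluster 8 and 590 CPM in Ob cluster 9. Of these, 8 reached 50 counts in the pair, most of them through Ob cluster 9. Within Ob the sum of cluster 9 ranked 2 of 21, behind 606 CPM in cluster 4 and beside 589 CPM in cluster 7. In clusters 4 and 7, 11 and 12 of 12 adipocyte markers were counted, so a high sum was not particular to mural cells. Notch3, the Notch receptor of mural cells, was counted 37 times (24.04 CPM) in Mid_Ob cluster 8 and 248 times (133.5 CPM) in Ob cluster 9, 5.55-fold higher (3.92 to 8.07). Rgs5, a regulator of G protein signalling and a pericyte marker, was counted 16 times (10.4 CPM) and 118 times (63.5 CPM), 6.11-fold higher (3.61 to 11.04). Abcc9, a subunit of potassium channels of pericytes, was counted 4 times (2.60 CPM) and 118 times (63.5 CPM), 24.4-fold higher (9.30 to 91.2). In the other clusters all 3 genes were lower in Ob than in Mid_Ob, at ratios of 0.412, 0.351 and 0.707.

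Contractile genes were higher as well, at lower counts. Myh11, the smooth muscle myosin heavy chain, was at 28.6 CPM in Mid_Ob cluster 8 and 51.7 CPM in Ob cluster 9, 1.81-fold higher (1.25 to 2.64). Tagln was at 7.15 and 35.0 CPM, 4.90-fold higher (2.56 to 10.3), and Acta2, smooth muscle actin, at 15.6 and 44.1 CPM, 2.83-fold higher (1.78 to 4.67). Steap4, a metalloreductase that adipocytes also carry, was at 59.1 and 144 CPM, and there the other clusters were 3.05-fold higher. Cnn1, a defining contractile marker, had a count of 0 in both clusters. It had only 23 counts in the whole Mid_Ob library and 26 in Ob, so these values lie at the floor. Cspg4, a pericyte proteoglycan, was at 14.9 CPM in Mid_Ob cluster 8 and 5.92 CPM in Ob cluster 9 with 34 counts in the pair. Des, the muscle filament desmin, had 20 counts in each cluster.

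The place of these genes within each library differed. In Mid_Ob, 8 of 13 mural markers were highest in cluster 9, in which 11 of 13 blood endothelial markers were highest too. There Rgs5 was at 296 CPM, Notch3 at 138 CPM, Myh11 at 131 CPM and Abcc9 at 84.0 CPM. In Ob, 5 of 13 mural markers, among them Notch3, Myh11, Abcc9 and Tagln, were highest in cluster 9, while all 13 blood endothelial markers were highest in cluster 21. The summed level of the 13 mural markers was 922 CPM in Mid_Ob cluster 9 and 269 CPM in Ob cluster 8. Ob cluster 9 held 14.2% of the Notch3 counts and 23.2% of the Abcc9 counts of its library. Ob cluster 8 held more of the Notch3 counts, 25.2% at 93.1 CPM, so a high Notch3 level was not particular to Ob cluster 9. Of the Abcc9 counts Ob cluster 8 held 4.72%, at 5.08 CPM.

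Blood endothelial markers other than Tek were low in both clusters. Tek, the angiopoietin receptor, was at 221 CPM in Mid_Ob cluster 8, the highest of its library, and at 153 CPM in Ob cluster 9, rank 2 of 21, and it was a leading gene of both. The 13 markers summed to 367 CPM in Mid_Ob cluster 8 and 418 CPM in Ob cluster 9, Tek included, against 3118 CPM in Mid_Ob cluster 9 and 5900 CPM in Ob cluster 21. Flt1, a receptor for vascular endothelial growth factor, was at 14.9 and 52.7 CPM, 3.53-fold higher (2.22 to 5.83), and Pecam1 at 23.4 and 38.2 CPM, 1.63-fold higher (1.08 to 2.51). Both were lower in the other clusters of Ob, at ratios of 0.636 and 0.7996. Whether vessel nuclei inside Ob cluster 9 carry its mural counts was not tested, since the tables give sums over nuclei.

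**Figure D4:**
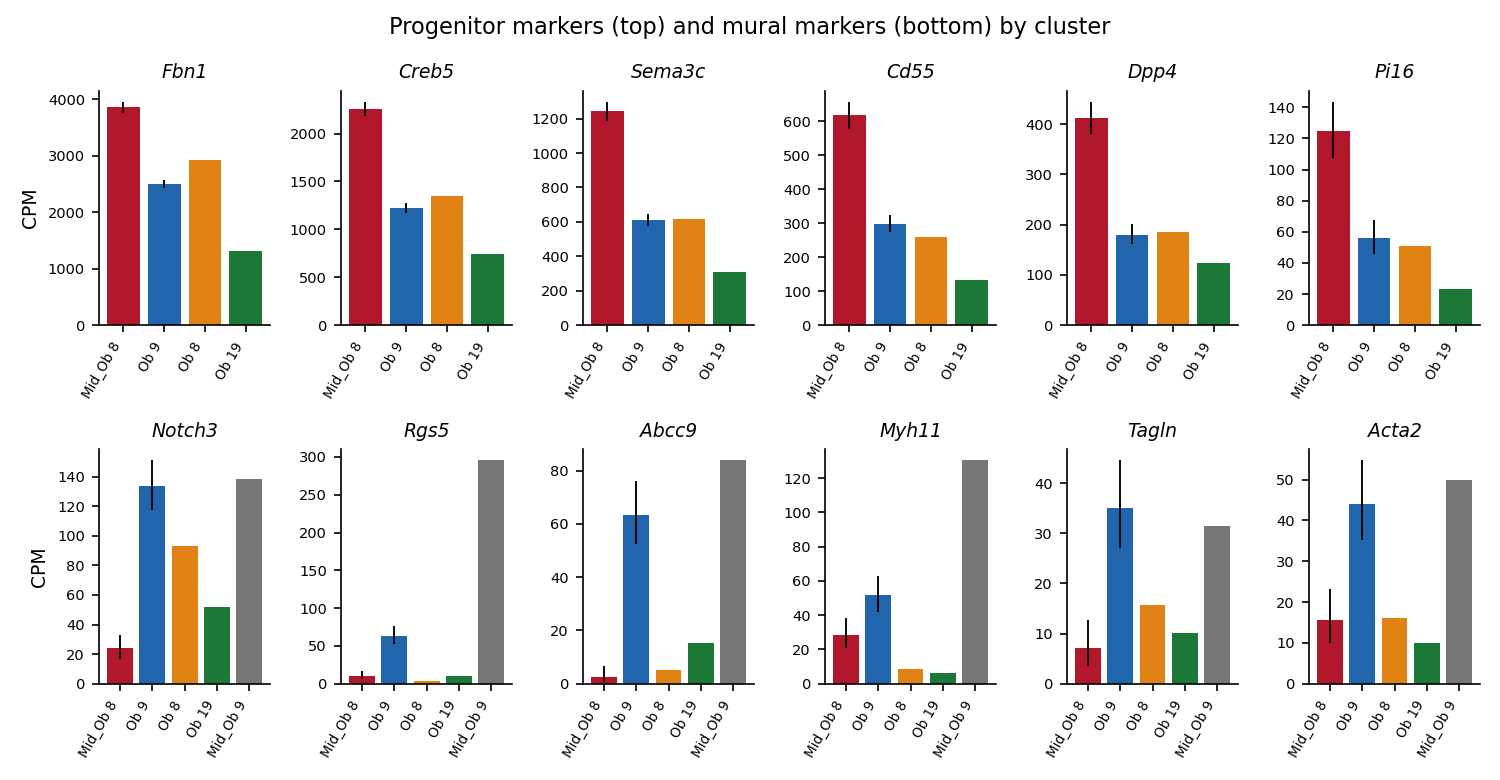
Level in CPM of 6 Dpp4/Pi16 progenitor markers (top) and 6 mural markers (bottom) in Mid_Ob cluster 8 and in Ob clusters 9, 8 and 19, and for the mural markers also in Mid_Ob cluster 9, with 95% Poisson intervals on the first 2 bars. Progenitor markers lie near each other in Ob clusters 9 and 8, below Mid_Ob cluster 8, while Rgs5, Abcc9, Myh11, Tagln and Acta2 are higher in Ob cluster 9 than in Ob clusters 8 and 19.

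Transcripts of other cells and of the whole library shifted beside these genes. The 4 hemoglobin genes summed to 27.3 CPM in Mid_Ob cluster 8 and 915 CPM in Ob cluster 9, 33.6-fold higher (24.7 to 46.7), and were 16.7-fold higher in the other clusters of Ob. The 83 ribosomal protein genes were 2.51-fold higher in the cluster and 1.94-fold higher in the others, and the 13 mitochondrial genes 1.33-fold and 1.38-fold higher. Epididymal markers, which were at 1257 CPM or more in each Mid_Ob cluster, summed to 1347 CPM in Mid_Ob cluster 8 and 121 CPM in Ob cluster 9, 11.2-fold lower, and were 70.6-fold lower in the other clusters. Gpx5, an epididymal peroxidase, had 833 counts in Mid_Ob cluster 8 and 0 in Ob cluster 9, or 335-fold lower with 3 counts in place of 0. The part of these transcripts in the other differences was not tested.

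Adipocyte markers were low in both clusters and higher in Ob cluster 9. The 12 markers summed to 489 CPM, the lowest of 11 clusters, in Mid_Ob cluster 8 and to 1091 CPM, rank 9 of 21, in Ob cluster 9. Cidec, a lipid droplet protein, was at 42.9 and 167 CPM, 3.89-fold higher (2.97 to 5.16), against 1.504-fold in the other clusters. Lep, the hormone leptin, was at 41.6 and 92.0 CPM, 2.21-fold higher, with a ratio of 0.679 in the other clusters. Fabp4, a fatty acid carrier shared by adipocytes, vessels and macrophages, was at 266 and 2197 CPM, 8.27-fold higher (7.47 to 9.18), against 4.08-fold in the other clusters. Macrophage markers differed less, at 477 and 633 CPM, while those in the other clusters were 2.70-fold higher. Ptprc, the pan-leukocyte marker, was at 100.7 and 100.6 CPM.

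Genes of the committed preadipocyte pool were split. Of 13, 8 were higher and 4 lower, with a median log2 ratio of 0.68, or 0.18 relative to the other clusters. Pparg, the adipogenic nuclear receptor, was at 147.5 and 296.5 CPM, 2.01-fold higher (1.72 to 2.36), although it was lower in the other clusters of Ob (ratio 0.739). Lpl, which releases fatty acids from lipoproteins, was at 308 and 685 CPM, and Cd36, a fatty acid transporter, at 199 and 616 CPM, where the other clusters were 1.67-fold and 2.97-fold higher. Col4a1, a basement membrane collagen, was at 425.5 and 1114 CPM, 2.62-fold higher (2.40 to 2.86), against 1.17-fold in the other clusters. Ebf2, a regulator of preadipocyte identity, was lower at 1803 and 1034 CPM, 1.74-fold (1.64 to 1.85), as was Zfp423 at 151 and 87.2 CPM and the glypican Gpc3 at 316 and 153 CPM.

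**Figure D5:**
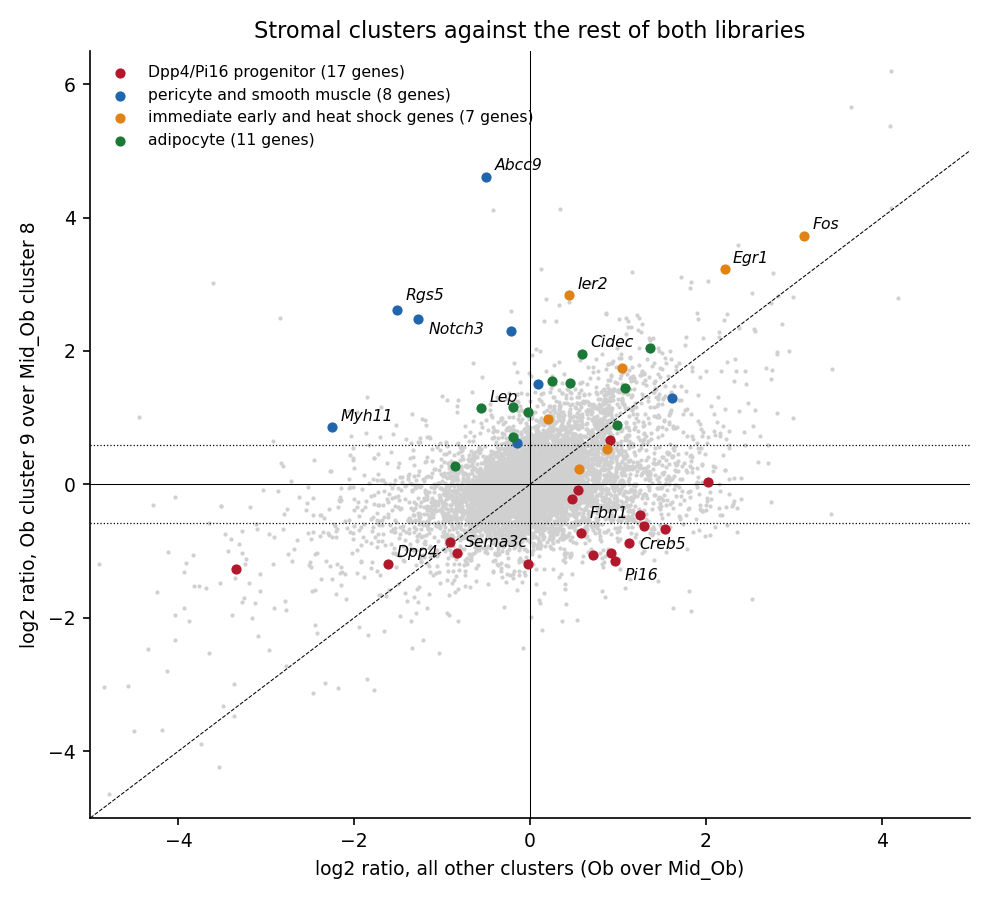
Log2 ratio of Ob cluster 9 over Mid_Ob cluster 8 (vertical) against the same ratio over all other clusters of both libraries (horizontal) for 8719 genes, with 4 marker or gene lists in colour, dotted lines at 1.5-fold and a dashed line of equality (48 genes lie outside the plotted range). Mural markers lie above the line of equality except 1, and most Dpp4/Pi16 progenitor markers lie below 0 on the vertical axis.

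Among semaphorins, Sema3e was within the limit and the others tested were level or lower. Of 8 with at least 50 counts, none was higher and 3 were lower, with a median log2 ratio of -0.47 that turned to 0.23 relative to the other clusters, where semaphorins were lower too. Sema3c, the most counted of them and a marker of interstitial progenitors, was at 1241 and 609 CPM, 2.04-fold lower (1.89 to 2.20), with a ratio of 0.560 in the other clusters. Sema5a was at 186 and 117 CPM and Sema3d at 109 and 70.0 CPM, with ratios of 0.408 and 0.401 there. Of the receptors, Plxnd1, through which Sema3e signals, was counted 23 times (14.9 CPM) in Mid_Ob cluster 8 and 45 times (24.2 CPM) in Ob cluster 9, with a ratio of 1.62 whose interval (0.960 to 2.81) holds 1. Nrp1, a co-receptor of class 3 semaphorins, was 1.65-fold higher at 283 and 468 CPM, and 2.16-fold higher in the other clusters. Plxna1 was lower, at 36.4 and 18.8 CPM.

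Matrix genes moved in both directions. Of 24 collagen chains, 6 were higher and 4 lower, with a median log2 ratio of 0.17 that turned to -0.18 relative to the other clusters, or 0.25 relative to them without Ob clusters 8 and 19. Col3a1 was at 1493 and 2655 CPM, 1.78-fold higher (1.69 to 1.87), and Col1a1 at 231 and 384 CPM, 1.66-fold higher. Both were higher by a larger factor in the other clusters of Ob, at 2.27-fold and 3.44-fold, which fell to 1.66-fold and 3.04-fold without clusters 8 and 19. Col4a1 and Col4a2 were higher (Col4a2 at 300.1 and 616 CPM) while the chains Col4a5 and Col4a6 of the same basement membrane family were lower, with Col4a6 at 127 and 46.8 CPM, 2.71-fold lower (2.09 to 3.52), and both lower in the other clusters at ratios of 0.664 and 0.547.

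Of 34 matrix glycoproteins and proteoglycans, 8 were higher and 6 lower, with a median log2 ratio of 0.10, or -0.69 relative to the other clusters. Tnc, tenascin-C of injured and remodelled tissue, was counted 38 times (24.7 CPM) and 320 times (172 CPM), 6.98-fold higher (4.97 to 10.0). Postn, periostin, was at 199 and 597 CPM, 2.995-fold higher, and Thbs1, thrombospondin-1, at 34.4 and 133.5 CPM, 3.88-fold higher (2.87 to 5.32), against 2.04-fold in the other clusters. Tnc and Postn were higher by a larger factor in the other clusters, at 7.91-fold and 6.70-fold (3.66-fold for Postn without Ob clusters 8 and 19), and Tnc was higher still in Ob cluster 8, at 263 CPM. Spon1, an F-spondin of the matrix, was at 44.2 and 140.5 CPM, 3.18-fold higher (2.43 to 4.22), with a ratio of 0.988 in the other clusters. Of 26 matrix proteases, inhibitors and crosslinkers, 4 were higher and 3 lower, close to the shares of all genes. Timp3, a tissue inhibitor of metalloproteinases bound to matrix, was at 106 and 192 CPM, and Adamts9 at 39.6 and 99.0 CPM, and both were lower in the other clusters of Ob, at ratios of 0.749 and 0.499.

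Some WNT ligands and R-spondins were lower in Ob cluster 9. The 40 WNT genes summed to 3005 CPM in Mid_Ob cluster 8 and 2699 CPM in Ob cluster 9. Of the 17 with at least 50 counts, 5 were lower, 2 higher (Fzd4 and Dkk2) and 10 within 1.5-fold. The shares over all genes were 11.5%, 12.9% and 75.6%. The median log2 ratio of the 17 was -0.31. Relative to the other clusters it was -0.23, and 0.03 without Ob clusters 8 and 19 among them. Wnt5b was at 76.7 and 36.6 CPM, 2.09-fold lower (1.54 to 2.86), Wnt5a at 42.9 and 15.6 CPM, 2.75-fold lower (1.75 to 4.41), and Wnt10b, which restrains adipogenesis, at 24.7 and 6.46 CPM, 3.82-fold lower (1.96 to 8.04). The R-spondins, which amplify WNT signals, were lower too. Rspo1 was at 45.5 and 19.4 CPM and Rspo3 at 29.2 and 9.15 CPM. All 5 were lower in the other clusters too, at ratios between 0.322 and 0.830. Ob cluster 8 held levels near those of cluster 9, with 14.6 CPM of Wnt5a and 6.35 CPM of Wnt10b.

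Of 26 TGF-beta and BMP genes, 1 was higher and 5 lower, with a median log2 ratio of -0.08, or 0.06 relative to the other clusters. Bmp6 was at 560.0 and 358 CPM, 1.56-fold lower (1.41 to 1.73), and Tgfb2 at 120.2 and 74.3 CPM. Fst, follistatin, which binds activins, was the higher member at 17.5 and 41.4 CPM, 2.36-fold (1.51 to 3.81). Of 20 PDGF, FGF and IGF genes, 8 were higher and 2 lower. Egfr, the EGF receptor, was at 1484 and 2309 CPM, 1.56-fold higher (1.48 to 1.64). Its inhibitor Errfi1 was higher as well (above). Igfbp7, a secreted binding protein also abundant in vessels, was at 262 and 488 CPM, 1.86-fold higher, and Igf1r at 625 and 362 CPM, 1.73-fold lower, where the other clusters had a ratio of 0.210.

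Several inflammatory genes of stroma were higher in Ob cluster 9. The 39 genes of the list summed to 2715 CPM in Mid_Ob cluster 8 and 3692 CPM in Ob cluster 9. Over the 30 with at least 50 counts the median log2 ratio was 0.69, and it turned to -0.30 relative to the other clusters. Of the 30, 16 were higher and 4 lower (Il18, C1ra, Lcn2 and Thbd), against 12.9% and 11.5% of all genes. Relative to the other clusters, 4 were higher and 10 lower. Il1r1, the interleukin-1 receptor, was at 295 and 544 CPM, 1.84-fold higher (1.65 to 2.07), and Osmr, the oncostatin M receptor, at 150.1 and 290.1 CPM, 1.93-fold higher (1.65 to 2.27), against 1.47-fold and 1.20-fold in the other clusters. The alarmin Il33 was at 24.7 and 59.2 CPM, 2.40-fold higher (1.64 to 3.57), and had a ratio of 0.567 elsewhere. The monocyte attractants Ccl2 (18.2 and 59.2 CPM) and Ccl7 (9.74 and 47.9 CPM) were 3.25-fold and 4.92-fold higher, against 5.46-fold and 5.88-fold in the other clusters.

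Several immediate early genes were higher in Ob cluster 9. The 12 genes of the immediate early and heat shock list summed to 217 CPM in Mid_Ob cluster 8, 768 CPM in Ob cluster 9 and 522 CPM in Ob cluster 8. Egr1, an early growth response factor, was counted 40 times (25.98 CPM) and 453 times (244 CPM), 9.38-fold higher (6.78 to 13.3), against 4.63-fold in the other clusters, and was highest of all Ob clusters there. Ier2 was at 12.3 and 88.3 CPM, 7.15-fold higher (4.44 to 12.2), against 1.36-fold, and Fos at 6.496 and 86.1 CPM, 13.3-fold higher (7.02 to 28.2), against 8.66-fold. These genes also answer to tissue handling, whose part in the difference was not tested.

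Of 23 positional transcription factors, 14 lay within the limit, 7 were lower and 2 higher, against 75.6%, 11.5% and 12.9% of all genes, with a median log2 ratio of -0.23 that turned to 0.49 relative to the other clusters. The lower ones were Foxp2 and 6 HOX genes, such as Hoxa3 at 112 and 52.7 CPM and Hoxc5 at 25.3 and 12.4 CPM, and both were lower in the other clusters as well, at 0.456 and 0.643. Tbx18, a factor of mural and some mesenchymal cells, was higher at 14.9 and 31.8 CPM, 2.13-fold (1.29 to 3.61). Of 17 hormone receptors, 3 were higher and 2 lower, near the shares of all genes, while Rora, an orphan nuclear receptor, was at 1712 and 1666 CPM.

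Ob cluster 9 was then set beside Ob cluster 8 of the same library, the cluster closest to Mid_Ob cluster 8 by likeness. As both were cut from 1 set of nuclei by the same genes, their differences are a description. Of 10592 genes, 1028 (9.71%) were higher and 514 (4.85%) lower in Ob cluster 9, and 85.4% lay within 1.5-fold. Of the 16 fibroblast markers 1 was higher and none lower. The 13 mural markers summed to 590 CPM in Ob cluster 9 and 269 CPM in Ob cluster 8, the 12 adipocyte markers to 1091 and 596 CPM, and the 13 blood endothelial markers to 418 and 285 CPM. The 10 dividing cell markers went the other way, at 39.3 and 273 CPM. Top2a, which untangles DNA in dividing cells, was at 8.61 CPM in Ob cluster 9, 69.8 CPM in Ob cluster 8 and 72.0 CPM in Ob cluster 19, against 31.2 CPM in Mid_Ob cluster 8. Hemoglobin counts were 198 CPM in Ob cluster 8 against the 915 CPM of cluster 9, ribosomal protein counts 4570 CPM against 9734 CPM, and mitochondrial counts 1684 CPM against 5464 CPM. The part of these transcripts in the other differences between Ob clusters 9 and 8 was not tested.

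Across all 46 clusters, the genes whose log2(CPM + 1) followed Sema3e most closely among 15267 genes were Pamr1 (Pearson r 0.927), Nova1 (0.908), Dpep1 (0.895), Opcml (0.890), Has2os (0.876) and Pdgfra (0.873). Clusters of 1 library share their nuclei preparation, so these values only describe the pattern. Pamr1 was at 200.1 CPM in Mid_Ob cluster 8 and 126 CPM in Ob cluster 9, and Dpep1, a membrane dipeptidase, at 148 and 179.7 CPM, each the highest of its library.

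On the question of a shared cell kind, both clusters carried the same fibroblast markers, among them Pdgfra, by which they were chosen. Most of these markers were also counted in Ob clusters 8, 13 and 16. They shared 62 of 100 leading genes (22 of 50), with the chosen markers Sema3e and Col14a1 among the 62. Each was among the closest clusters to the other. They differed in counts of several mural, progenitor, adipocyte and immediate early genes and of hemoglobin, and Mid_Ob cluster 8 was also close to Ob clusters 8 and 19, so no single Ob cluster stood out as its match.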

How the data were processed

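Nuclei of epididymal fat, pooled from 8 mice in each of Ctrl, Mid_Ob and Ob, were profiled with 10x Genomics chemistry. The authors ran Cell Ranger, which aligns with STAR. For both tools the version, and for the reference its build and gene models, is not given in the sources used here. The authors stated filters on genes, UMIs, mitochondrial and red blood cell transcripts and removal of doublets, but not whether the deposited clusters were made after them. The deposited signal columns are mean counts, a gene's UMIs over all nuclei of the cluster, scaled by the total of the size factors of these nuclei. The deposited log2 columns hold the authors' fold change of a cluster over its library and the deposited p-value columns its adjusted p-value, and neither was used.

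Whole UMI counts were recovered from the smallest step of each column (100% whole within 0.001) and scaled to CPM. Ratios have conditional exact binomial and levels exact Poisson intervals of 95%, with 3 counts in place of 0. Profiles are log2((CPM + 5)/(CPM of the other clusters + 5)) for genes with at least 200 counts in both libraries. Relative values divide a ratio by that of the other clusters. The 2 clusters and the 30 gene lists were chosen with earlier results of these data known. Named genes were the defining markers, the 15 highest and 15 lowest ratios and 12 leading genes of each cluster and of both (200 counts or more), the 4 most counted members and the called members of each list, and the 6 genes most like Sema3e. The ranked parts skip mitochondrial genes and genes known by a model identifier only. The recovery and intervals were tested on simulated data. Python 3.11.15, NumPy 2.4.6, SciPy 1.17.1 and pandas 2.3.3 were used.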

Additional observations from a re-analysis of the deposited data

How the results depend on the processing

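No paired analysis was possible because each stage had 1 library, and for the same reason no replicate could be left out. The count of 1123 higher and 1004 lower genes became 2284 and 2474 with a minimum of 10 counts and 361 and 282 with a minimum of 200 counts. Chosen after seeing the data, leaving out genes past 1.5-fold the same way in the other clusters gave 572 and 571, and Ob cluster 19 in place of cluster 9 gave 2435 and 1934. Members of the 12 pathway lists that were higher and lower numbered 57 and 42, and 92 and 74 with a minimum of 10 counts. Relative to the other clusters 54 were higher and 65 lower, and without Ob clusters 8 and 19 among them 67 and 36. Unlike the counts of single lists, these totals are given without the number of members tested. They are not read against the shares of all genes. The likeness of the pair, 0.709, was 0.619 as Spearman rho, 0.760 with a minimum of 1000 counts and 0.654 over the median of the other clusters. Ob cluster 9 kept rank 2 for Mid_Ob cluster 8, and Mid_Ob cluster 8 rank 1 for Ob cluster 9, under all of these. By shared leading genes the rank of Ob cluster 9 was 2, and 3 with 50 leading genes. It was 1 over the median of the other clusters and 1 with Ob clusters 8 and 19 left out of them, an alternative added after seeing the data.

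Of 96 named genes, 94 kept their call when the median gene ratio was set to 1. Relative to the other clusters 21 changed sign, and 20 did so with Ob clusters 8 and 19 left out of those, an alternative added after seeing the data. These log2 values, the second without Ob clusters 8 and 19, turned negative for Col1a1 (-1.05 and -0.88), Steap4 (-0.32 and -0.39), Igfbp6 (-0.25 and -0.21), Nrp1 (-0.39 and -0.40), Postn (-1.16 and -0.29), Tnfaip6 (-1.28 and -0.31), Ccl7 (-0.26 and -0.26) and Ccl2 (-0.75 and -0.76). They turned positive for Gpx5 (6.29 and 6.17), Igf1r (1.47 and 1.58), Bmp7 (2.07 and 2.49), Sema5a (0.62 and 0.61), Dpp4 (0.43 and 0.54), Sema3d (0.68 and 1.12), Dact2 (0.052 and 0.89) and Hoxa3 (0.043 and 0.41). With all other clusters Col3a1 (-0.35), Tnc (-0.18), Sult1e1 (-0.38), Ifi205 (-0.52) and Icam1 (-0.047) turned as well, and without Ob clusters 8 and 19 Cd36 (-0.0088), Rspo3 (0.37), Col4a5 (0.24) and Tgfb2 (0.40) did instead. In the same order, list medians past 1.5-fold turned for stromal inflammation (-0.30 and -0.32) and mesothelial genes (0.11 and 0.05). They also turned for epididymal epithelium (6.48 and 6.44), germ cell (-0.10 and -0.21) and testis somatic genes (0.50 and 0.46). With all other clusters the median of F3 regulatory stroma (-0.20) turned as well. Only 4 mesothelial, 1 germ cell (Sycp3) and 1 testis somatic gene (Clu) had at least 50 counts. The relative value divides by the ratio of the other clusters, so it moves with those clusters as well.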
